A study of Mus musculus with 4 samples.

Results

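The NPY/AgRP neurons are 510 nuclei of the mouse hypothalamus, out of 56386 annotated nuclei and 35756 nuclei of the large neuronal cluster Neurons_1. They were taken as every Neurons_1 nucleus whose deposited sub-cluster name is NPY/AgRP, in all 4 libraries. Wild-type repeat 1 contributed 135 of them, wild-type repeat 2 contributed 160, TRα1+m repeat 1 contributed 105 and TRα1+m repeat 2 contributed 110. The name was checked against its defining transcripts: 457 of the 510 nuclei held at least 1 unique molecular identifier (UMI, a counted RNA molecule) of Agrp, 444 held Npy, 405 held both and 14 held neither. A single UMI can be background, and at least 2 UMIs were found in 369 nuclei for Agrp (72.4%, against 3.16% of GABA neurons) and in 377 for Npy (73.9%, against 1.04%). In wild-type repeat 1 these shares were 44.4% and 43.7%.

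These neurons sit in the arcuate nucleus and drive feeding. They release neuropeptide Y, the inhibitory transmitter GABA and agouti-related peptide, which blocks melanocortin signalling and so opposes the neighbouring POMC neurons. Leptin and insulin restrain them, and ghrelin excites them. Thyroid hormone acts on the hypothalamus through the nuclear receptors TRα and TRβ, encoded by Thra and Thrb.

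The study compared adult male C57/BL6NCr wild-type mice with mice heterozygous for the R384C mutation of TRα1 (TRα1+m), which lowers the affinity of the receptor for its ligand. All animals were fed freely on a constant light and dark cycle, and none received a treatment. A library is a pool of 3 hypothalami from a single genotype, 12 in all. Every experimental repeat (1 and 2) gave a wild-type and a mutant library. The mutation is present in every cell from conception, so the libraries do not separate an effect arising in these neurons from an effect of other tissues. With 2 libraries per genotype, an exact two-sided permutation test cannot give a p below 0.333, and comparisons across genes rest on edgeR, which pools the spread over genes.

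The NPY/AgRP nuclei held 565040 UMIs in wild-type repeat 1, 867792 in wild-type repeat 2, 440128 in mutant repeat 1 and 567409 in mutant repeat 2. Their median depth was 4020, 5113, 3797 and 4459.5 UMIs per nucleus in the same order, so both libraries of repeat 2 were deeper than both of repeat 1. No barcode sequence was shared between libraries among these nuclei, and 44 to 64 were shared per pair of libraries among all annotated nuclei. Levels are given as CPM, the UMIs of a gene scaled to 1e+06 UMIs of the NPY/AgRP nuclei of a library. Introns were counted, so a long gene collects more UMIs than a short one, and levels are compared between cells or libraries and not between genes.

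The promoters of 3 genes are shown here: Npy, which defines the cells, Epha3, the gene that passed the test between genotypes, and Rnf152, which did not pass without the block described below (adjusted p = 0.233 in edgeR) and was chosen after the search because its window held the hexamer described next. Each is the 250 bases before the RefSeq start on GRCm38.p6, written from 5′ to 3′ on the strand of the gene. Npy lies at chr6:49822460-49822709 (+), Epha3 at chr16:63864176-63864425 (-) and Rnf152 at chr1:105356711-105356960 (-). Capitals mark AGGTCA, the hexamer to which thyroid hormone receptors bind in their response elements, searched on both strands.
Npy: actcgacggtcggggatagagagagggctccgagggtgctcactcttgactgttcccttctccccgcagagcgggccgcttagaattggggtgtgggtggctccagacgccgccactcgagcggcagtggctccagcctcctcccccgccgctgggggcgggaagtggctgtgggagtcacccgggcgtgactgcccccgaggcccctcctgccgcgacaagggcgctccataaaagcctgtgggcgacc
Epha3: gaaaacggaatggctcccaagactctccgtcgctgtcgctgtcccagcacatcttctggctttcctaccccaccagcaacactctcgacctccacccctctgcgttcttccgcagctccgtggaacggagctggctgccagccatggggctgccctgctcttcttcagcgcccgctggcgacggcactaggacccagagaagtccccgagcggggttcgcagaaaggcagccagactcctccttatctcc
Rnf152: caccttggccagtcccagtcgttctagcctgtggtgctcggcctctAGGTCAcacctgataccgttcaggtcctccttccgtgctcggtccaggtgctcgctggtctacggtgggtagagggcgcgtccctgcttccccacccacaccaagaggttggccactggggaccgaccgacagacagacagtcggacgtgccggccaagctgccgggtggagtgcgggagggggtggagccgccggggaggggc

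The hexamer stands in the Rnf152 window, 204 bases before the start, and these letters are not in the Npy and Epha3 windows. It was found in 4607 of 32851 promoters of the table, or 14.0%. Of the 29 genes named below between genotypes, 21 had a promoter in the table and 1 of them, Rnf152, held it. A match is a description of the letters and not a binding site.

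Agrp and Npy themselves did not separate the genotypes. Agrp reached 418 CPM in wild-type repeat 1, 1261 in wild-type repeat 2, 500 in mutant repeat 1 and 1248 in mutant repeat 2. Npy reached 412, 2988, 593 and 3639 CPM in the same order. Both peptide transcripts were low in the 2 libraries of repeat 1 and high in the 2 libraries of repeat 2, and the genotypes overlapped. Within each repeat Npy was higher in the mutant library, while Agrp was higher there in repeat 1 and slightly lower in repeat 2. Between genotypes the log2 fold change was 0.03 for Agrp (SE 0.878, adjusted p = 1 in edgeR) and 0.29 for Npy (SE 1.69, adjusted p = 1). With the repeat as a block, these were 0.07 (SE 0.124, adjusted p = 0.94) and 0.36 (SE 0.115, adjusted p = 0.318).

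**Figure D1:**
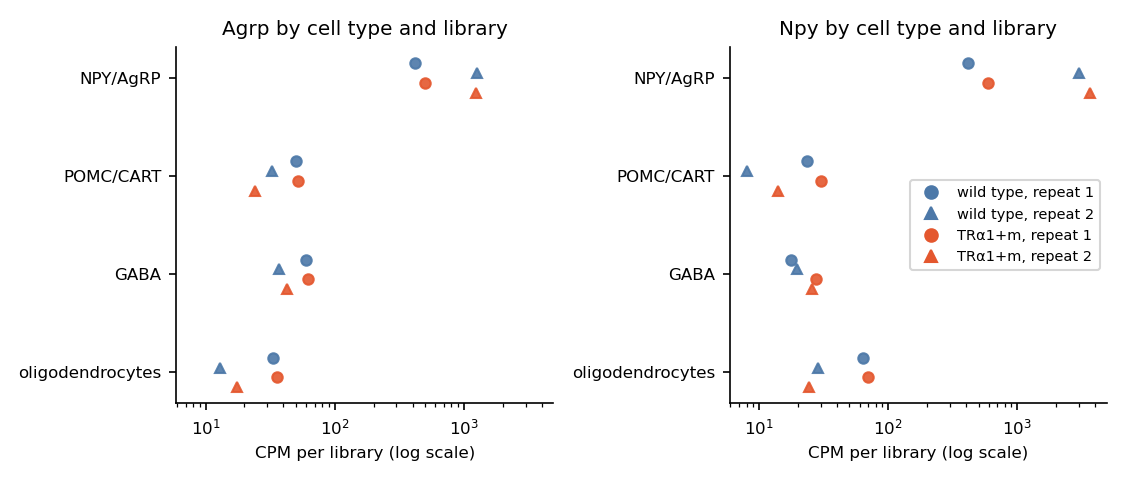
Level of Agrp (left) and Npy (right) in CPM on a log scale for each library, in NPY/AgRP, POMC/CART and GABA neurons and in oligodendrocytes. Circles are repeat 1, triangles repeat 2, blue wild type and red TRα1+m. In NPY/AgRP neurons the triangles lie right of the circles in both genotypes, with Agrp at 1248 and 1261 against 418 and 500 CPM.

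Both transcripts were at a lower level in GABA and POMC/CART neurons and in oligodendrocytes. Agrp averaged 50.5 ± 12.4 CPM in GABA neurons, 39.7 ± 13.5 in POMC/CART neurons and 24.7 ± 11.3 in oligodendrocytes (SD, n = 4 libraries). Npy averaged 22.6 ± 4.66 CPM in GABA neurons, 19.0 ± 9.92 in POMC/CART neurons and 46.6 ± 23.3 in oligodendrocytes. Npy was higher in some other clusters, with 48.6, 25.6, 58.7 and 282 CPM in microglia and macrophages (wild-type repeats 1 and 2, mutant repeats 1 and 2) and 34.2, 98.7, 47.9 and 127 CPM in the sub-cluster CART Neurons_1. At least 1 Agrp UMI was found in 19.2% of GABA nuclei at a median depth of 4180 UMIs and in 4.03% of oligodendrocytes at 1605, against 89.6% of NPY/AgRP nuclei at 4344. For Npy these shares were 7.26%, 7.43% and 87.1%, and a single UMI is read as background. Of nuclei with many UMIs most lay in the NPY/AgRP cluster: 192 of the 210 nuclei with at least 5 Agrp UMIs lay in it, or 91.4%, and 62 of the 64 with at least 10. The division was less sharp for Npy, where 264 of the 349 nuclei with at least 5 UMIs lay in it, or 75.6%, with 33 in GABA neurons, 17 in microglia or macrophages and 12 in the cluster Neurons_2. Of the 229 nuclei with at least 10 Npy UMIs, 205 were NPY/AgRP neurons, 11 GABA neurons, 6 of Neurons_2 and 4 microglia or macrophages.

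The counts per nucleus showed the same division by repeat. The median nucleus held 1 Agrp UMI in wild-type repeat 1 and 2 in mutant repeat 1, and 6 in each library of repeat 2. For Npy the medians were 1 and 2 UMIs in repeat 1 and 13 and 17.5 in repeat 2. To compare shares at a common depth, each nucleus was thinned to 2000 UMIs, which left out 7, 3, 5 and 1 nuclei of the 4 libraries. After thinning, at least 2 Agrp UMIs were found in 20.3% and 68.8% of wild-type nuclei and in 30.0% and 58.7% of mutant nuclei (repeats 1 and 2), against 44.4%, 93.8%, 60% and 87.3% before it. The means were 44.6% ± 34.3 and 44.4% ± 20.3 (SD, n = 2 libraries each), and the exact two-sided permutation test gave p = 1. In thinned GABA nuclei the share was between 0.282% and 1.20%.

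The gene model of Agrp bears on these counts. The GENCODE annotation of the same build, GRCm38, gives Agrp the span chr8:105566698-105637393 (-), 70.7 kb, which overlaps Ctcf and Ripor1 on the other strand and the non-coding Gm5914 and the pseudogene Gm45855 on the same strand. Reads from the parts shared on the same strand cannot be assigned with certainty, and whether they add to the Agrp level in other cells was not tested. Npy spans 6.8 kb at chr6:49822710-49829507 (+).

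The share of NPY/AgRP nuclei was lower in the mutant library of each repeat, and no test of it passed. They made up 1.41% of Neurons_1 nuclei in wild-type repeat 1 (exact 95% interval 1.19 to 1.67), 1.83% in wild-type repeat 2 (1.56 to 2.13), 0.989% in mutant repeat 1 (0.809 to 1.20) and 1.61% in mutant repeat 2 (1.33 to 1.94); the intervals cover counting error only. The means were 1.62% ± 0.295 and 1.30% ± 0.441 (SD, n = 2 libraries each; exact two-sided permutation p = 0.667), and the groups overlapped. Over all annotated nuclei the shares were 0.921% and 1.20% in the wild types and 0.639% and 0.918% in the mutants, which did not overlap. Their means were 1.06% ± 0.198 and 0.779% ± 0.198 (SD, n = 2 libraries each), and the exact two-sided permutation test gave p = 0.333, the smallest it can give. The total of mutant repeat 2 includes 852 nuclei of Neurons_2, against 5, 1 and 6 in wild-type repeats 1 and 2 and mutant repeat 1. The paper deemed this cluster an experimental artifact. Without it in the totals, mutant repeat 2 would lie above wild-type repeat 1, so nothing is read from the lack of overlap. edgeR on the nuclei of all 14 neuronal sub-clusters gave a log2 fold change of -0.32 (SE 0.423, adjusted p = 0.992). The share was higher in repeat 2 in both genotypes, and in a dissected tissue fewer cells of a type and a different cut cannot be told apart.

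A set of 25 genes stood out in these nuclei against the rest of Neurons_1, each with at least 20 CPM in every library and ranked by the lowest of its 4 ratios, with 1 CPM added to both levels. This is a description, since the clusters were made from the same genes. Corin, a membrane serine protease, led with 296, 234, 273 and 169 CPM (wild-type repeats 1 and 2, mutant repeats 1 and 2) and at least 37.0-fold over the other neurons in each library on that scale. Npy had rank 3 and Agrp rank 8. Acvr1c, an activin receptor of the ALK family, averaged 193 ± 31.3 CPM and Npffr2, a receptor for RFamide peptides, 55.9 ± 17.2 CPM (SD, n = 4 libraries). The cell surface proteoglycan Gpc4 averaged 242 ± 36.5 CPM and the transcription factor Tbx3 36.6 ± 3.02 CPM. In POMC/CART neurons Tbx3 was at 41.9 CPM, Tbx3os1 at 126 and Nr5a2 at 78.9, each above its mean in NPY/AgRP neurons. Gm20647, which had rank 2 and would come before Corin without the added CPM, was at 48.4 to 60.2 CPM against 0.455 to 0.669 in the other neurons and lies within the span of Corin on the opposite strand. The last gene inside the limit of 25 was Plagl1, with a lowest log2 ratio of 2.23, and the next outside was Ptprk, with 2.19.

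**Figure D2:**
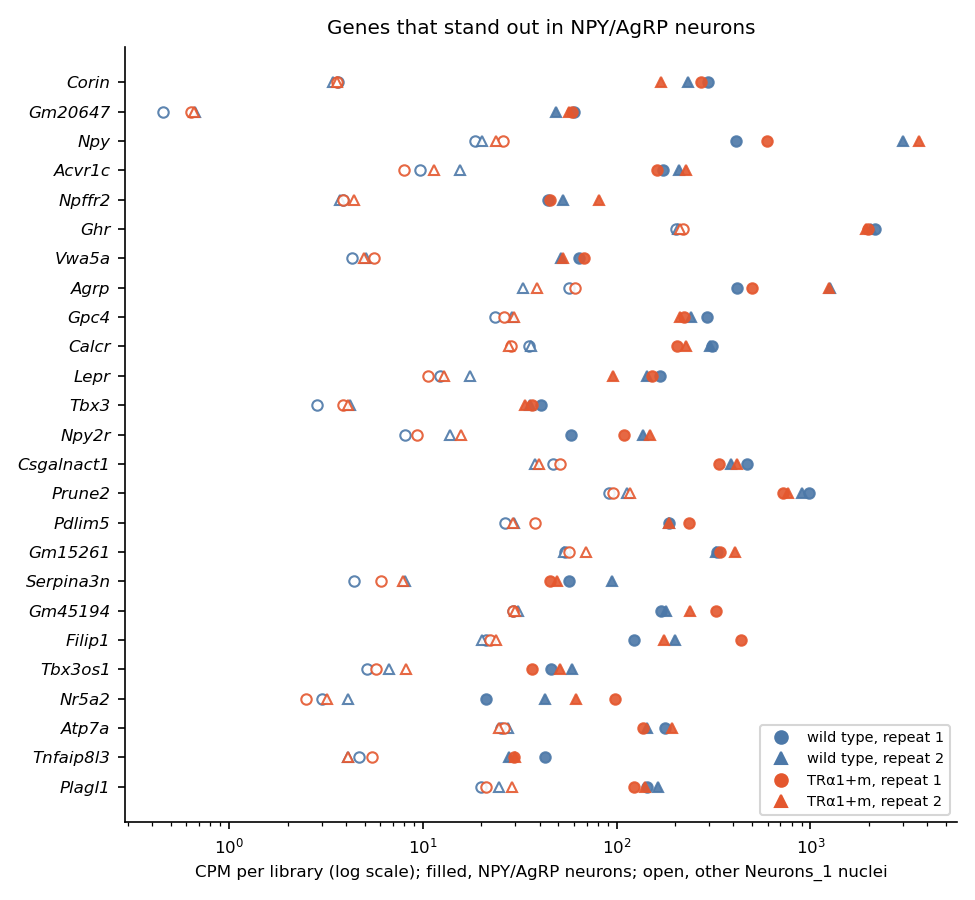
Level in CPM on a log scale of the 25 genes that stood out, for each library. Filled points are NPY/AgRP neurons and open points the other Neurons_1 nuclei, with circles for repeat 1, triangles for repeat 2, blue for wild type and red for TRα1+m. Filled and open points do not overlap for any of the 25 genes, by the rule that chose them, and Npy and Agrp show the wide gap between circles and triangles.

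Several of these genes encode receptors for hormones and peptides of energy balance. The growth hormone receptor gene Ghr reached 2156, 2043, 1979 and 1923 CPM in the 4 libraries and was found in 98.1% to 99.4% of nuclei, with 207 CPM in GABA neurons and 257 in POMC/CART neurons. Lepr, the leptin receptor, reached 166, 143, 152 and 95.2 CPM, against 33.7 in POMC/CART and 15.2 in GABA neurons. Calcr, the calcitonin receptor, reached 312, 302, 205 and 229 CPM, with 29.4 CPM in GABA neurons. Npy2r, through which neuropeptide Y acts back on the cells that release it, stood at 58.4, 136, 109 and 148 CPM. Ghr was the steadiest of these over the libraries, and Npy2r was higher in the second repeat of either genotype. Insr, the insulin receptor, was at 116 CPM and did not stand apart from its 114 CPM in GABA neurons. The ghrelin receptor Ghsr was at 3.54, 8.07, 2.27 and 19.4 CPM, too few UMIs for the test, and the prolactin receptor Prlr and the oestrogen receptor Esr1 were far lower than in POMC/CART neurons (33.4 against 453 CPM and 33.2 against 307 CPM).

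None of the gene lists for these functions held a gene that passed the test between genotypes. Over all 8380 genes tested, 1 passed at an adjusted p of 0.05, which is 0.0119%. In all 288, or 3.44%, reached an unadjusted p below 0.05, with 124 higher (1.48%) and 164 lower (1.96%) in the mutant. With the repeat as a block, 660 genes reached an unadjusted p below 0.05. List counts at an unadjusted p are from the fit without the block. The median of all tested genes was 0.00145 on the log2 scale. Among the hormone and peptide receptors 17 of 30 were abundant enough to be tested. Of these, 3 had an unadjusted p below 0.05: Calcr was lower (log2 fold change -0.53, SE 0.192), and Esr1 (1.31, SE 0.418) and Hcrtr2, an orexin receptor (1.75, SE 0.682), were higher, each with an adjusted p of 1 in edgeR. Esr1 went from 15.9 and 20.7 CPM in the wild types to 59.1 and 37.0 in the mutants and Hcrtr2 from 1.77 and 12.7 to 36.4 and 21.2, while POMC/CART neurons held 307 and 139 CPM of these genes. Hcrtr2 was abundant enough for the test through the mutants alone. The median of the receptor list was 0.262.

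Of the leptin and insulin signalling genes, 21 of 24 were tested and none had an unadjusted p below 0.05, with a median of -0.00226. Stat3, the transcription factor downstream of the leptin receptor, was at 184, 206, 227 and 183 CPM, and Pik3ca, a catalytic subunit of PI3 kinase, had the smallest p of the list (log2 fold change 0.52, SE 0.251, unadjusted p = 0.0591 in edgeR). The list of NPY/AgRP neuron genes gave 17 tested of 20 and none below 0.05 (median -0.114). Peptide processing and secretion genes gave 16 tested of 16 and none (median -0.0394). Fuel sensing and uncoupling genes gave 15 tested of 26, none below 0.05 and a median of -0.077.

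No tested gene of the thyroid hormone pathway passed either. Thra stood at 103 and 108 CPM in the wild types and 84.1 and 88.1 in the mutants, and Thrb at 60.2 and 74.9 against 84.1 and 70.5. The mutation changes an amino acid of the receptor, so the Thra level does not tell the genotype. The log2 fold change was -0.32 for Thra (SE 0.252) and 0.15 for Thrb (SE 0.286), both with an adjusted p of 1 in edgeR. Thrb was lower in NPY/AgRP neurons than in POMC/CART and GABA neurons, at 72.4 against 289 and 250 CPM. Thra was at 95.8 against 109 and 95.2 CPM in the same order. These differences between cell types were not tested. Of 22 receptors, cofactors, transporters and deiodinases 11 were tested, and of 20 response genes 7 were. None of either list had an unadjusted p below 0.05, and their medians were -0.0427 and -0.109. Klf9, a direct target of thyroid hormone in the brain, was at 44.2 and 44.9 against 31.8 and 38.8 CPM (log2 fold change -0.36, SE 0.351).

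Epha3, an Eph receptor tyrosine kinase of axon guidance, was the gene that passed the test between genotypes. It stood at 271 and 172 CPM in the wild-type libraries and at 31.8 and 15.9 in the mutant libraries. A UMI of Epha3 was found in 30.4% and 28.1% of wild-type nuclei and in 10.5% and 5.45% of mutant nuclei. The 4 libraries did not overlap between genotypes, which is likely for a gene picked by its small p. The share of all tested genes without overlap was not counted. Epha3 fell by 3.27 on the log2 scale (SE 0.386, adjusted p = 0.0475 in edgeR). It missed the threshold with bias-adjusted deviances (adjusted p = 0.0748) and with 105 nuclei drawn from each library (adjusted p = 0.428), with log2 fold changes of -3.27 and -3.41. GABA neurons held 88.0 and 70.1 CPM in the wild types and 67.3 and 56.7 in the mutants, and oligodendrocytes 3.33 to 9.11, so the wild-type NPY/AgRP level was above that of the GABA neurons and the mutant level below it. Epha3 spans 321 kb at chr16:63543534-63864175 (-). In wild-type repeat 1 the nuclei with an Epha3 UMI held Agrp in 82.9% and those without in 78.7%, and in wild-type repeat 2 these were 97.8% and 98.3%.

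Other genes were lower in both repeats but did not pass in this fit, and the 11 with the next smallest p are described here. Dpp10, an auxiliary subunit of A-type potassium channels, was at 2076 and 2314 CPM in the wild types and 1166 and 1036 in the mutants (log2 fold change -1.02, SE 0.143, adjusted p = 0.0547 in edgeR). Htr1f, a serotonin receptor, was at 145 and 136 against 34.1 and 42.3 CPM (-1.89, SE 0.281, adjusted p = 0.0656). Rnf152, an E3 ubiquitin ligase of lysosomes, was at 81.4 and 59.9 against 6.82 and 17.6 CPM, and Lin7a, a scaffold protein of synapses, at 513 and 364 against 204 and 208 CPM. For each of these 4 genes the groups did not overlap, which the choice by small p favours. Oligodendrocytes held less of each than the wild-type NPY/AgRP neurons, from 4.31 CPM of Htr1f to 112 of Dpp10. Fli1, an ETS transcription factor with 3.98 CPM in GABA neurons, went from 85.0 and 107 to 36.4 and 44.1 CPM. Kcnq3, a subunit of M-type potassium channels, was at 832 and 862 against 466 and 596 CPM, and oligodendrocytes held 846 CPM. Galnt14, Tafa1, Fbn2 and Lrrc4c had log2 fold changes from -2.31 to -0.55. Galnt14 was at a lower level in the mutant POMC/CART neurons too, at 66.5 and 83.3 against 23.1 and 31.7 CPM, but did not pass there. Lrrc4c was lower in mutant oligodendrocytes, at 1763 and 1688 against 789 and 739 CPM, while Fbn2 was higher there, at 81.4 and 86.2 against 264 and 251 CPM. Gm26713, a gene of unknown function, had 13 and 24 UMIs in the wild types and 0 and 2 in the mutants. Gm26713, Fbn2 and Rnf152 were abundant enough for the test through the wild types alone. The mutants held 2 and 5 UMIs of Fbn2 and 3 and 10 of Rnf152.

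**Figure D3:**
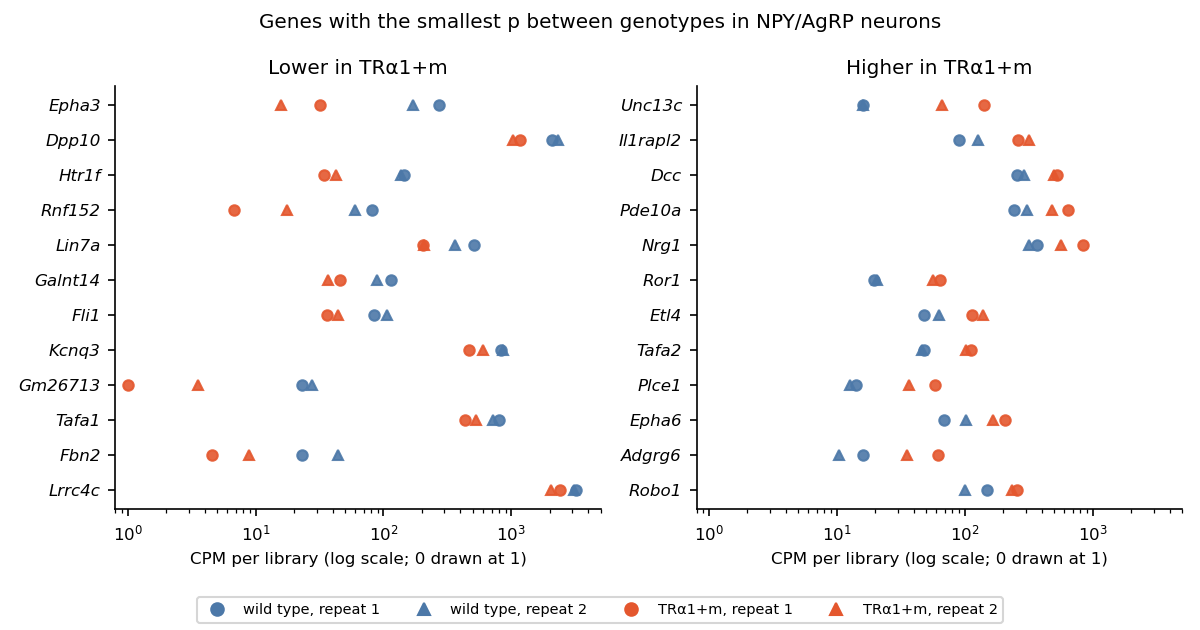
Level in CPM on a log scale in each library of the 12 genes with the smallest p among those lower (left) and higher (right) in TRα1+m in both repeats. Circles are repeat 1 and triangles repeat 2, blue wild type and red TRα1+m, and a level of 0 is drawn at 1. Red and blue points do not overlap for any of the genes, which the choice by small p favours. Epha3, at 172 to 271 against 15.9 to 31.8 CPM, has passed the test.

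On the other side, no gene had an adjusted p below 0.05 in this fit, and the 12 with the smallest p among those higher in both repeats are described here. Unc13c, a priming factor of synaptic vesicles, was at 15.9 and 16.1 CPM in the wild types and 141 and 67.0 in the mutants (log2 fold change 2.63, SE 0.434, adjusted p = 0.142 in edgeR). Il1rapl2, a synaptic adhesion protein, was at 90.3 and 128 against 261 and 321 CPM (1.38, SE 0.235, adjusted p = 0.142). Dcc, the netrin receptor, was at 257 and 289 against 529 and 497 CPM, Pde10a, a phosphodiesterase, at 244 and 305 against 641 and 481, and the growth factor gene Nrg1 at 366 and 317 against 848 and 562. The other genes were Ror1, Etl4, Tafa2, Plce1, Epha6, Adgrg6 and Robo1. Unc13c, Plce1 and Adgrg6 were abundant enough for the test through the mutants alone, with 8 to 14 UMIs in each wild-type library. By the means over the 4 libraries, for every one of these 12 genes except Ror1, Plce1 and Adgrg6 the GABA neurons held more than the NPY/AgRP neurons, from 160 CPM of Unc13c to 2096 of Nrg1. Oligodendrocytes held 35.5 CPM of Unc13c, 629 of Dcc and 1006 of Robo1, which is above the wild-type NPY/AgRP level of each.

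Genes that are high in other neurons were therefore measured as a class. The 64 genes over 4-fold higher in GABA neurons than in NPY/AgRP neurons, judged by the means over all libraries, had a median log2 fold change of 0.411 between genotypes, with 13 higher and 1 lower at an unadjusted p below 0.05. The 7885 genes within 2-fold had a median of -0.000819, with 81 and 136. The 46 genes over 4-fold higher in POMC/CART neurons had a median of 0.291. The medians of both classes were above that of all genes, in the direction of the higher genes above, and the part of this shift in those results was not tested. The classes were formed after the higher genes were seen. The GABA class holds some of them, such as Robo1 and Epha6, so its count partly restates them. For the 222 genes over 4-fold higher in oligodendrocytes the median was -0.0415, with 10 higher and 9 lower at an unadjusted p below 0.05. For the 738 genes 2- to 4-fold higher there it was -0.15, with 4 higher and 26 lower.

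The summed markers of oligodendrocytes and astrocytes did not move one way with the genotype, while those of microglia and tanycytes were higher in the mutant library of both repeats. The 7 oligodendrocyte markers added up to 510, 441, 582 and 345 CPM in the 4 libraries, most of all Mbp with 235, 188, 273 and 139 CPM. The 7 astrocyte markers added up to 273, 182, 439 and 162 CPM, led by Slc1a2, and were highest in mutant repeat 1. The 6 microglia and macrophage markers gave 124, 91.0, 150 and 123 CPM, led by P2ry12, and the 6 tanycyte and ependymal markers 255, 228, 350 and 231 CPM, led by Nnat, and the part of either in the results was not tested. OPC markers gave 21.2 to 36.9 CPM, led by Olig1, and endothelial and mural markers 14.2 to 31.8 CPM, led by Vtn. Pituitary markers were between 0 and 5.29 CPM, with Tshb and Gh at 0 in all 4 libraries. In GABA neurons the oligodendrocyte and astrocyte sums were 499 and 282 CPM. A selection chosen after seeing the data took the nuclei at or under the median of the glial and vascular markers, without the tanycyte and ependymal list. In these nuclei the log2 fold change of Epha3 was -3.18 (adjusted p = 0.0193 in edgeR).

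The repeats pair the libraries, and the fit with the repeat as a block called 21 genes, 0.251% of those tested, 9 higher and 12 lower in the mutant. Epha3 was among them (adjusted p = 7.68e-06 in edgeR with the block), with Dpp10 (5.82e-04), Htr1f (1.38e-03), Unc13c and Il1rapl2 (both 1.16e-03), Nrg1 (2.49e-03) and Lin7a (4.82e-03). Csmd3, a synaptic transmembrane protein, rose from 264 and 332 to 464 and 529 CPM (0.0395), and GABA neurons held 1861. Chrm3, a muscarinic acetylcholine receptor, fell from 322 and 234 to 182 and 129 CPM (0.039), and Zbtb20, a transcription factor, from 1419 and 1062 to 913 and 751 CPM (0.0392), with 1344 and 1202 against 695 and 668 CPM in oligodendrocytes. Mutant GABA neurons held less of both, with 350.5 and 319 against 296 and 248 CPM of Chrm3 and 737 and 750 against 654 and 620 of Zbtb20. Chrm3 was lower in mutant POMC/CART neurons too, at 216 and 175 against 167.5 and 134 CPM. None of these passed without the block. Cartpt was called lower as well (0.0355). The remaining calls were Dcc (0.0111), Rnf152 (0.0134), Pde10a (0.0146), Kcnq3 (0.033), Robo1 (0.037), Galnt14 (0.0377), Etl4 and Lrrc4c (both 0.0392) and Fli1 (0.0397). In DESeq2 with the block, an alternative chosen after seeing the data, Epha3 (adjusted p = 1.35e-07), Dpp10 (4.65e-04) and AC149090.1 (0.0228) passed, and Unc13c and Il1rapl2 (both 0.0571), Nrg1 (0.0716), Htr1f (0.136) and Lin7a (0.193) did not, nor did Pde10a (0.321), Dcc and Rnf152 (both 0.634) and the other 10, each with an adjusted p of 1. The block also called AC149090.1, at 455 and 327 CPM in the wild types and 1066 and 612 in the mutants (log2 fold change 1.04 with the block, SE 0.131, adjusted p = 1.16e-03). This gene lies on an unplaced scaffold, and whether its reads are shared with similar sequence elsewhere was not tested. Its level moved alike in other cells: the log2 fold change was 1.09 in GABA neurons and the levels were 360 and 287 against 908 and 568 CPM in POMC/CART neurons. AC149090.1 was lower in repeat 2 in each genotype. In the fit without the block its log2 fold change of 1.07 was 0.59 without mutant repeat 1 (adjusted p = 0.909 in edgeR). In the same fit Nrg1 went from 1.02 to 0.66 without mutant repeat 1, Zbtb20 from -0.61 to -0.37 without wild-type repeat 1 and Cartpt from -1.82 to -0.60 without wild-type repeat 2 (adjusted p = 0.75, 1 and 0.998). With the block a single gene keeps 1 residual degree of freedom, and the calls rest mainly on the spread pooled over genes.

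The genotype effect was then set against that in 2 other types of neuron of the same libraries. Against the 768 POMC/CART neurons the effect differed for 24 of 10121 genes, or 0.237%, with 18 more positive and 6 more negative in NPY/AgRP neurons. With the repeat as a block this count was 59, with 33 more positive and 26 more negative. It varied widely without a library, as given in the last section. Against the 15042 GABA neurons the effect differed for 65 of 16636 genes, or 0.391%, 36 more positive and 29 more negative. The 2 comparisons share the NPY/AgRP libraries, and 18 genes were called in both, 75% of the first set and 27.7% of the second. These fits carry a term for each library, and without it neither called a gene at an adjusted p of 0.05 (at an unadjusted p below 0.05 edgeR gave 231 and 458). The GABA sums are far deeper, with 14554413 to 18754475 UMIs per library, and enter the same estimate of the spread.

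Epha3 had the smallest p against GABA neurons, with a difference of -2.89 on the log2 scale (SE 0.265, adjusted p = 1.63e-23 in edgeR), and differed from POMC/CART neurons by -3.04 (SE 0.563, adjusted p = 6.84e-03). With a library left out, the highest adjusted p was 5.54e-11 against GABA neurons and 0.915 against POMC/CART neurons, where the call was lost. In POMC/CART neurons Epha3 was at 24.9 and 12.8 CPM in the wild types and 7.22 and 22.8 in the mutants, a low level with overlapping groups. Dpp10 differed by -0.80 from GABA neurons, which held 2023 and 2116 against 1861 and 1727 CPM, and by -0.9996 from POMC/CART neurons (SE 0.126 and 0.145, adjusted p = 3.46e-07 and 3.10e-04). Htr1f differed by -1.70 from GABA neurons (SE 0.257, adjusted p = 8.46e-08). Against POMC/CART neurons its difference of -2.17 did not pass (SE 0.577, adjusted p = 0.141 in edgeR). Kcnq3 was lower in the mutant NPY/AgRP neurons and not in POMC/CART neurons, where it went from 360 and 361 to 416 and 467 CPM. The difference was -0.98 (SE 0.15, adjusted p = 6.95e-04 in edgeR). From GABA neurons Kcnq3 differed by -0.67 (SE 0.142, adjusted p = 1.27e-03), a call lost with a library left out. Rbfox1, a neuronal splicing factor, differed by -0.72 from POMC/CART neurons (SE 0.122, adjusted p = 2.47e-03), with 1269 and 1444 CPM in wild-type and 972 and 999 in mutant NPY/AgRP neurons. Against POMC/CART neurons Dpp10 and Rbfox1 lost their call with a library left out (highest adjusted p = 0.0702 and 0.199).

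**Figure D4:**
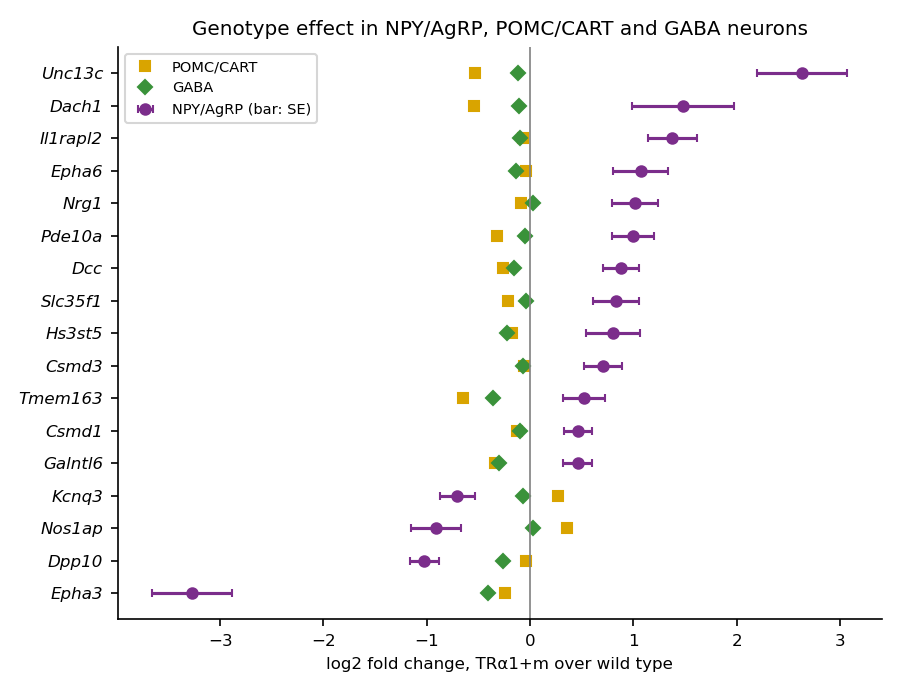
Log2 fold change of TRα1+m over wild type in NPY/AgRP neurons (purple circles with the standard error), POMC/CART neurons (yellow squares) and GABA neurons (green diamonds), for 17 of the 18 genes whose genotype effect differed from both other types. The purple points reach from -3.27 for Epha3 to 2.63 for Unc13c, where POMC/CART and GABA neurons lie at -0.25 and -0.41 for Epha3 and at -0.53 and -0.12 for Unc13c.

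Among the more positive effects Unc13c differed by 2.70 from GABA neurons and by 3.11 from POMC/CART neurons (SE 0.297 and 0.421, adjusted p = 7.46e-16 and 2.01e-04 in edgeR). Il1rapl2 differed by 1.44 and 1.39, Dcc by 1.00 and 1.11 and Pde10a by 0.98 and 1.28, in the same order. GABA neurons held 1924 and 1936 CPM of Dcc in the wild types and 1865 and 1726 in the mutants, and 607 and 567 against 591 and 590 CPM of Pde10a. For Dcc all NPY/AgRP levels lay below these, and for Pde10a mutant repeat 1, at 641 CPM, lay above them. Without a library, the highest adjusted p against POMC/CART neurons was 0.027 for Unc13c, 0.0388 for Pde10a, 0.0596 for Dcc and 0.116 for Il1rapl2, so that the last 2 lost their call.

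Several genes of this kind belong to axon guidance, a group put together after their values were seen. Of 47 guidance receptors and ligands 34 were tested, and 5 were higher and 6 lower in the mutant at an unadjusted p below 0.05, with a median of -0.0717. That is more of the list than the 1.48% higher and 1.96% lower of all genes, in a list formed around genes already seen to move, so nothing is read from it. With the block 2 were called higher and 2 lower. Epha3 and Epha6 are Eph receptors with log2 fold changes of opposite sign, Epha6 from 69.0 and 103 to 207 and 166 CPM (log2 fold change 1.07, SE 0.267, adjusted p = 0.721 in edgeR). Robo1, a receptor for Slit proteins, went from 149 and 101 to 257 and 236 CPM, and its relative Robo2 from 676 and 643 to 607 and 587. Epha6, Epha3, Htr1f and Robo1 lie on chromosome 16 between 59653483 and 73046095, and of these Epha3 alone passed without the block (adjusted p = 0.721 for Epha6, 0.0656 for Htr1f and 0.772 for Robo1 in edgeR). Cadm2 and Zfp654, which lie between them, had log2 fold changes of -0.22 and -0.32 (adjusted p = 1 for both). Both signs occur along this stretch.

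No gene of the other lists passed the adjusted test without the block. With it Kcnq3, an excitability gene (adjusted p = 0.033 in edgeR), Cartpt and AC149090.1 did, and in DESeq2 with the block Kcnq3 and Cartpt did not (adjusted p = 1 for both). The counts below are at an unadjusted p below 0.05, which 1.48% of all genes reached as higher and 1.96% as lower. Genes of GABA and glutamate transmission gave 28 tested of 30 and 3 with an unadjusted p below 0.05: Grik1 and Grm8 were higher and Gria4 lower (log2 fold changes 0.65, 0.49 and -0.30). Gad1 was at 81.4, 84.1, 79.5 and 95.2 CPM and Gad2 at 205, 217, 182 and 182 in the 4 libraries. Excitability channels gave 29 tested of 33 and 3 lower at an unadjusted p below 0.05, Kcnq3, Kcnj3 and Scn9a, with a median of -0.0855. Of the mitochondrially encoded genes 11 of 13 were tested, 4 were lower at an unadjusted p below 0.05 and the median was -0.40; mt-Co3 went from 2734 and 2807 to 2186 and 1875 CPM (log2 fold change -0.48, SE 0.138, adjusted p = 0.87 in edgeR). These transcripts come from outside the nucleus, and oligodendrocytes held 5769 CPM of mt-Co3.

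Clock genes gave 14 tested of 17, and at an unadjusted p below 0.05 Npas2 was higher, at 15.9 and 16.1 against 47.7 and 42.3 CPM (log2 fold change 1.44, SE 0.401, adjusted p = 0.845 in edgeR), and Per3 lower, at 97.3 and 111 against 72.7 and 51.1 CPM (adjusted p = 1). Npas2 was abundant enough for the test through the mutants alone. The list of transcription factors of the arcuate nucleus and the GABA lineage also held the splicing factors Rbfox1 and Rbfox3. Of its 24 genes 10 were tested. At an unadjusted p below 0.05 Nr5a2 was higher (1.22, SE 0.39, adjusted p = 1 in edgeR) and Rbfox1, which is not a transcription factor, lower (-0.49, SE 0.143, adjusted p = 0.87). Of 18 immediate early genes 1 was abundant enough, Jund, with a log2 fold change of -0.27, so the activity of the neurons could not be read from them. Of the 7 genes that the study names between genotypes in neurons, a list chosen on these samples and so no independent evidence, all were tested; AC149090.1 and Grm8 were higher and mt-Co3 lower at an unadjusted p below 0.05. The POMC/CART genes gave 4 tested of 6, with Pomc and Nr5a2 higher and Cartpt lower at an unadjusted p below 0.05 (adjusted p = 1 for each in edgeR without the block). Cartpt was at 207 CPM in wild-type repeat 2 and at 37.0 to 56.6 in the other libraries, and 2 nuclei of wild-type repeat 2 held 62 of its 180 UMIs. That library was the highest in other neurons too. GABA neurons held 66.8, 209, 70.4 and 108 CPM and POMC/CART neurons 193, 1100, 224 and 466.5 (wild-type repeats 1 and 2, mutant repeats 1 and 2). The log2 fold changes there were -0.68 and -0.93, and neither passed. Of the RNA quality and nuclear RNA genes 5 of 7 were tested and Meg3 was higher at an unadjusted p below 0.05. Malat1 was at 29040, 13270, 25380 and 19810 CPM.

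Of the neuropeptide precursors 15 of 30 were tested, and Cck and Pomc were higher and Cartpt lower in the mutant at an unadjusted p below 0.05. Cck was at 21.2 and 9.22 CPM in the wild types and 22.7 and 49.4 in the mutants, and a single nucleus of mutant repeat 2 held 27 of the 28 Cck UMIs of that library. Pomc was at 23.0 and 30.0 against 31.8 and 84.6 CPM, and a single nucleus held 22 of the 48 Pomc UMIs of mutant repeat 2. Sst, which is known from a part of the arcuate neurons, was at 184, 420, 125 and 426 CPM and found in 32.4% to 45.5% of nuclei, with 105, 391, 113 and 389.7 CPM in GABA neurons and 212, 61.9, 219.9 and 55.0 in oligodendrocytes. It was higher in both libraries of repeat 2 in these neurons and in GABA neurons. Pmch, the precursor of melanin-concentrating hormone, was at 308, 173 and 270 CPM and at 2018 in mutant repeat 2, but a single nucleus of that library held 1069 of its 1145 Pmch UMIs. Avp owed 210 of 313 UMIs in wild-type repeat 2 to a single nucleus as well. Oxt was at 248, 58.8, 236 and 14.1 CPM, with 737, 185, 513 and 91.5 CPM in oligodendrocytes, which do not make it.

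More genes of the NPY/AgRP neurons differed between the experimental repeats than between the genotypes. With genotype in the model, 357 of 8380 genes differed between repeats at an adjusted p of 0.05, or 4.26%, with 181 higher (2.16%) and 176 lower (2.10%) in repeat 2. Npy had the smallest p of all, with a log2 fold change of 2.70 (SE 0.12, adjusted p = 1.20e-09 in edgeR), and Agrp the fourth smallest with 1.42 (SE 0.125, adjusted p = 8.12e-06). DESeq2 called 52 genes. The repeats are separate experiments with different animals and depths, and these and any other difference between them cannot be told apart.

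**Figure D5:**
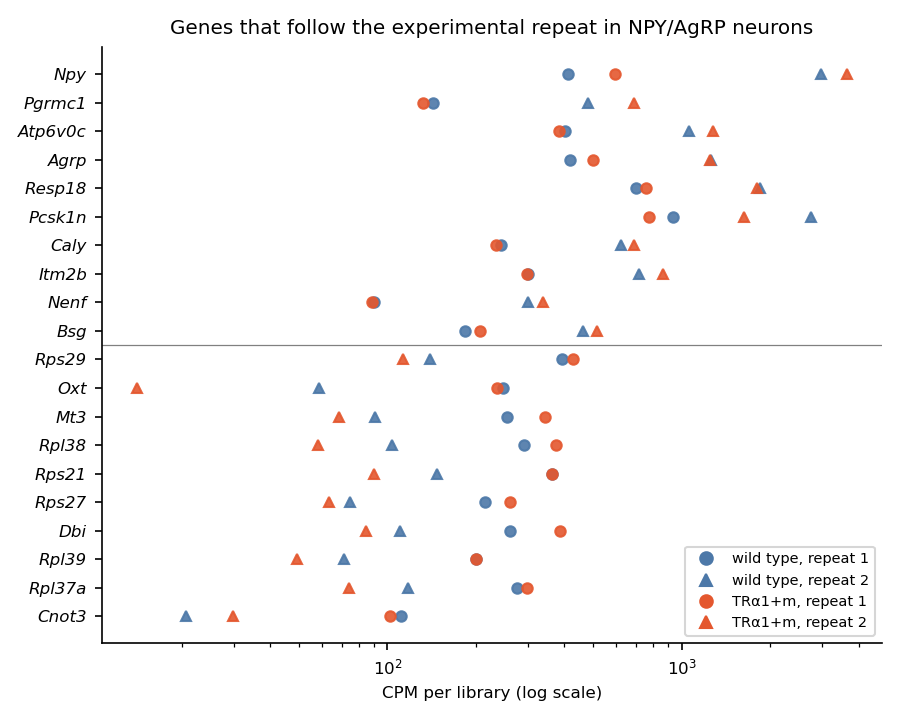
Level in CPM on a log scale in each library of the 10 genes with the smallest p that were higher (above the line) and lower (below the line) in repeat 2. Circles are repeat 1 and triangles repeat 2, blue wild type and red TRα1+m. Circles and triangles do not overlap for any of the 20 genes, and for Npy the triangles stand at 2988 and 3639 CPM against 412 and 593 for the circles.

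Genes of peptide secretion were among those higher in repeat 2. Of the 16 genes of peptide processing and secretion, 6 rose and none fell: Pcsk1n, Scg2, Scg5, Chga, Chgb and Vgf. Pcsk1n, an inhibitor of a prohormone convertase, went from 933 and 775 CPM in repeat 1 to 2764 and 1625 in repeat 2 (wild type and mutant). Scg2, a granin of dense-core vesicles, went from 212 and 241 to 409 and 516 CPM. The convertase Pcsk2 and the carboxypeptidase Cpe did not pass, with log2 fold changes of -0.40 and -0.03. Resp18, another protein of secretory granules, went from 701 and 759 to 1852 and 1805 CPM, and Atp6v0c, a subunit of the vesicular proton pump, from 402 and 384 to 1058 and 1278. Of 84 ribosomal protein genes tested 28 were lower in repeat 2 and none higher, with a median of -0.43. Rps29 went from 391 and 427 to 139 and 113 CPM. Of the astrocyte markers 2 were lower in repeat 2 and none higher, with a median of -1.05. Of the RNA quality and nuclear RNA genes 1 was higher and 2 were lower. The part of either in the other differences between repeats was not tested.

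Among the neighbouring types, Pomc in POMC/CART neurons was at 1104 and 1109 CPM in repeat 1 and 3595 and 3302 in repeat 2 (wild type and mutant), and at 16.3 to 41.8 CPM in GABA neurons. By length, the 1915 genes of 5 to 20 kb had a median log2 fold change of 0.114 between repeats, the 523 genes under 5 kb one of -0.126 and the 1902 genes over 100 kb one of -0.07. Depth per nucleus moved with the repeat too, and its part in these differences was not tested. None of the 17 tested hormone and peptide receptors passed between repeats, and Ghr had a log2 fold change of -0.10.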

How the data were processed

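The authors aligned reads with Cell Ranger 5.0.1, introns included, to mm10, the build GRCm38, and the deposited matrices hold raw UMI counts, whole numbers without normalization, for 32285 genes and 68190 barcodes. The authors kept 56386 nuclei (at least 900 counts and 700 features, at most 5% mitochondrial counts, doublet score under 0.18) and deposited their cluster and sub-cluster names, which were used as given; clustering and doublet scoring were not repeated.

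Raw UMIs of the NPY/AgRP nuclei were summed per library and tested in edgeR 4.0.16 (R 4.3.3) by two-sided quasi-likelihood F-tests with filterByExpr, TMM factors and Benjamini-Hochberg adjustment over all genes, at an adjusted p of 0.05. The pool of 3 mice is the replicate. The filter needs enough UMIs in 2 libraries, so a gene can enter a test through the group where it is high. The main fit had no block. Each experimental repeat holds a library of either genotype, and the differences between repeats correlated between the genotypes (Pearson r 0.419 across 8380 genes, which are not independent), so that the repeat was also fitted as a block. Genotype effects were compared between cell types as an interaction with a term per library. With a library left out, its genotype holds a single library. The spread in those fits comes from the other genotype and the pooling over genes. Single values were compared by exact permutation. DESeq2 1.42.0 was an alternative. The genotype fit without the block was tried on simulated sums that held no repeat effect. The block and interaction fits were not tried in this way.

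Named genes were Agrp and Npy, genes past the threshold with or without the block, the 12 per direction with the smallest p among those moving alike in both repeats, the 25 most distinct from other Neurons_1 nuclei, the 10 per direction between repeats and up to 10 per interaction. The rule gave 24 gene lists by counts with 2 to 4 examples; fewer or no examples were named for some lists and more for the neuropeptides, and axon guidance was a list added later. Members, lists and tests were chosen with earlier results of these data known. Gene spans are from GENCODE M21 on GRCm38, promoters from RefSeq on GRCm38.p6.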

Additional observations from a re-analysis of the deposited data

Results flagged for a closer look

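The genotype effect of 24 genes differed from that in POMC/CART neurons, by the test of the difference itself in edgeR with a term per library. The 10 genes with the smallest p differed on the log2 scale by 1.28 (Pde10a), 3.11 (Unc13c), 1.11 (Dcc), 1.39 (Il1rapl2), -0.9996 (Dpp10), -0.98 (Kcnq3), 0.80 (Galntl6), 1.12 (Nrg1), -0.72 (Rbfox1) and 1.13 (Tmem163). With a library left out, Unc13c, Pde10a and Kcnq3 kept an adjusted p below 0.05 in edgeR (highest 0.027, 0.0388 and 0.049), and the other 7 lost their call without at least 1 library (highest from 0.0596 for Dcc to 0.199 for Rbfox1).

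Against GABA neurons 65 genes differed in the same test. The 10 genes with the smallest p differed by -2.89 (Epha3), 2.70 (Unc13c), 1.44 (Il1rapl2), 1.00 (Dcc), 1.52 (Ntng1), 0.93 (Nrg1), -1.70 (Htr1f), 1.11 (Robo1), 0.98 (Pde10a) and -0.80 (Dpp10). All 10 stayed below 0.05 with a library left out (highest adjusted p = 0.0391, for Nrg1).

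Outside the annotated nuclei, in 11804 barcodes that the authors did not keep, 18 held at least 5 Agrp UMIs, and 13 of these held at least 5 Npy UMIs too, all 13 in the libraries of repeat 2. The 18 barcodes had a median of 7777 UMIs, against 2048.5 over all barcodes not kept.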

How the results depend on the processing

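Between genotypes 1 gene was called. RLE factors and the nuclei with both Agrp and Npy UMIs also called 1, bias-adjusted deviances 0 (293 genes at an unadjusted p below 0.05), DESeq2 2, equal numbers of 105 nuclei 2, no filter on low counts 26 and the replicate block 21; without a library, 6 to 14. Of alternatives chosen after seeing the data, the block with bias-adjusted deviances called 50, with DESeq2 3 and with nuclei holding Agrp and Npy UMIs 93, and nuclei low in glial and vascular markers gave 2. Epha3 kept its sign in all 15 alternatives and was called in 13 of them, and Dpp10 in 10.

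Against POMC/CART neurons 24 genes were called, 59 with the repeat as a block, 0 with no library block and 5 to 37 without a library, the fewest without mutant repeat 2. Against GABA neurons 65 were called, 0 with no library block and 39 to 49 without a library. Between repeats 357 were called, 512 with no filter and 52 by DESeq2; no library could be left out, since no degree of freedom remains.

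The log2 fold change of the share of Neurons_1 nuclei was -0.35 with the repeat as a block and between -0.71 and -0.00669 without a library. The difference in nuclei with Agrp UMIs, mutant minus wild type, was -0.193 percentage points; it was 1.71 at 1 UMI, 4.54 in whole nuclei and -24.4 to 24.1 without a library, where one genotype holds a single repeat. Agrp, at 0.03, was at -0.0085 with no filter and -0.0042 in nuclei low in glial and vascular markers, and between -0.766 and 1.00 without a library; Npy, at 0.29, was between -1.53 and 2.29. Dropping a library of one repeat unbalances the repeats, along which both peptides differ.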
